A study of Mus musculus with 18 samples.

Results

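The regions described are the H3K9me3 peaks of wild-type (WT) mouse embryonic fibroblasts (MEFs) that still lay over an H3K9me3 peak once the Kap1 gene had been deleted. A WT peak was called kept when it shared at least 1 bp with a peak of the Kap1 KO list. Only the 19 autosomes were used, without the distal end of chromosome 10 (chr10:110000001-129993255, mm9), where 70 of 264 WT peaks were shared. By this rule 377 of 14009 WT peaks were kept, which is 2.69% of those on the chromosomes used, and the whole WT list held 14425 peaks. The other 13632 peaks on these chromosomes are called not kept. The members were selected on the H3K9me3 lists themselves, so their H3K9me3 widths and scores, and the share kept on each chromosome, are given as a description without a test.

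The study examined how KAP1 acts on KZFP genes and related units of the mouse genome, and H3K9me3, H3K27ac, KAP1 and SETDB1 were mapped by ChIP-seq, with 1 library behind each MEF and Hepa 1.6 list used here. WT MEFs were embryonic cells of the Kap1 loxP/loxP genotype and of strain C57BL/6 (C57BL/6J in the methods), and Kap1 KO MEFs were cells of the same strain and stage in which Kap1 had been deleted. For the RNA-seq of these MEFs, the deleted cells were a single clone grown in long-term culture, and the controls were cells of the same origin with Kap1 intact. Whether the ChIP-seq used that clone is not given in the sources used here. KAP1 and SETDB1 were mapped in Hepa 1.6, a hepatoma line of a C57L mouse with a WT Kap1 gene, so KAP1 binding was read in another cell type and strain. An H3K27ac peak lay within 1 kb of a start of 11 of 12 fibroblast genes in both MEF lists. The same held for 1 of 8 hepatocyte genes in WT and 0 of 8 in Kap1 KO MEFs. The peak lists give no value that checks the deletion of Kap1. A peak's score is the value deposited from the MACS peak caller. MEF scores started at 50.01 (WT) and 50.03 (Kap1 KO), although the methods state a cutoff of 80, and all rows were used. Read depth is unknown here, and scores of lists called separately are not on a common scale. A place without a Kap1 KO peak may therefore hold signal under the threshold.

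KAP1, also called TRIM28, is a scaffold protein that KRAB zinc finger proteins (KZFPs) bring to their target DNA. It recruits SETDB1, which trimethylates lysine 9 of histone 3, and HP1 binds the resulting H3K9me3. Other methyltransferases, SUV39H1 and SUV39H2, place H3K9me3 on the satellite repeats around centromeres without KAP1.

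Many kept peaks lay on DNA that recurs nearby, and a few stretches of mm9 show examples of large duplicated units and of short tandem repeats. For the duplicated kind, 120 bases at the middle of the stretch shared by both genotypes are given from the member with the highest Kap1 KO score of each locus (A), with the most similar ungapped stretch of another kept peak of that locus (B). Capitals in B mark the bases that differ from A. In the SNORD116 array, A is chr7:67024948-67025067 and B, 15219 bases away, is chr7:67009729-67009848, with 0 differences. In the cluster of Gm7349, Gm7354 and Gm7360, A is chr8:57983383-57983502 and B is chr8:57990150-57990269, with 1 difference. In the Dux array, A is chr10:57688886-57689005 and B is chr10:57696565-57696684, also with 1 difference. In the cluster of Gm15433 and Gm7609, A is chr1:84960770-84960889 and B is the minus strand of chr1:85024774-85024893, with 0 differences over a distance of 64004 bases. All A stretches and the other B stretches are read from the plus strand. The names before the sequences stand for the locus and not for the gene under each stretch. Gm7609 A lies in the peak at Gm15433, and Gm7609 B in a peak over C130026I21Rik and Gm7582. Gm7354 B lies in a peak at the start of Gm7360.
SNORD116 A: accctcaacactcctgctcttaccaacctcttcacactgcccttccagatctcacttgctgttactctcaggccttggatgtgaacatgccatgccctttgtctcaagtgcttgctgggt
SNORD116 B: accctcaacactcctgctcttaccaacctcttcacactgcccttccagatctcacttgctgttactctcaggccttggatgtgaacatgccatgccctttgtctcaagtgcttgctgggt
Gm7354 A: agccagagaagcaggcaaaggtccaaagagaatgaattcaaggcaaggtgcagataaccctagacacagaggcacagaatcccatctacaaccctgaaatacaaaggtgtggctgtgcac
Gm7354 B: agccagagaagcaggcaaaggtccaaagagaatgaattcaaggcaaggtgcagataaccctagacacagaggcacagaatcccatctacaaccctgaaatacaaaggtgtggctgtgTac
Dux A: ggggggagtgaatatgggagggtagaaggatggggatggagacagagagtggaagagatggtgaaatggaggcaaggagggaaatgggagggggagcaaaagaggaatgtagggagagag
Dux B: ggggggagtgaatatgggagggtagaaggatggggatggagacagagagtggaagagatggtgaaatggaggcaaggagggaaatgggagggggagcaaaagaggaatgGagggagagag
Gm7609 A: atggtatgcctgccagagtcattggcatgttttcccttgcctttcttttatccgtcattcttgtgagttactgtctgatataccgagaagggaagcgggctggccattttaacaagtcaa
Gm7609 B: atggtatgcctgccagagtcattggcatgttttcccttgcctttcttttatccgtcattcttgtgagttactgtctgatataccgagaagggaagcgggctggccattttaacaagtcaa

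The tandem kind is shown by neighbouring repeat units from the middle of 4 kept peaks, plus strand, with bases that differ from unit 1 in capitals. The units lie at the start of Muc19 (chr15:91738391-91738510 and chr15:91738881-91739000, the first 120 bases of a unit of 489 bp), in an intron of Lyst (chr13:13846437-13846470 and chr13:13846471-13846504), in Rrp15 (chr1:188554960-188554990 and chr1:188554991-188555021) and close to Tmem125 (chr4:118220510-118220553 and chr4:118220554-118220597). Unit 2 differed from unit 1 at 0 bases in Muc19, 3 in Lyst, 0 in Rrp15 and 1 near Tmem125. The last sequence is a contrast. It comes from a kept peak in an exon of Tbr1 (chr2:61649752-61649871) in which every stretch of 31 bases occurs once in the genome, and its capitals mark CpG dinucleotides.
Muc19 unit 1: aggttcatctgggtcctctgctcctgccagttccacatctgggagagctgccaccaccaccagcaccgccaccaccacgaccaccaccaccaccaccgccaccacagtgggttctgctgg
Muc19 unit 2: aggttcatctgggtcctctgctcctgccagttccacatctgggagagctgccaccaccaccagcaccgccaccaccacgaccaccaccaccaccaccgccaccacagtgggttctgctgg
Lyst unit 1: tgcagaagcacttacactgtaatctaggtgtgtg
Lyst unit 2: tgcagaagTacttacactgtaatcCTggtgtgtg
Rrp15 unit 1: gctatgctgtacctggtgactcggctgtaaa
Rrp15 unit 2: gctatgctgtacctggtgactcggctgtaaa
Tmem125 unit 1: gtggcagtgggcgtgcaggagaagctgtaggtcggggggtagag
Tmem125 unit 2: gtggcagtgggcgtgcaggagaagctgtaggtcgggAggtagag
Tbr1: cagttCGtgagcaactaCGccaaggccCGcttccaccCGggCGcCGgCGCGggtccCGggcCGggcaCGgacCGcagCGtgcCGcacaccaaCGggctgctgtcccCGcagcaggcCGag

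Kept peaks were wider and had higher scores in the WT list than peaks not kept. The median width was 688 bp (quartiles 494 and 1237) for kept peaks and 494 bp (389 and 691) for the others. The median WT score was 107 (71.1 and 203) against 79.6 (59.0 and 123). The kept share was 1.78% among WT peaks with a score under 80, 2.86% from 80 to 200, 5.34% from 200 to 500 and 11.9% at 500 or more. A high score was no guarantee, since 15 of the 100 WT peaks with the highest scores were kept. On the Kap1 KO side, 392 of 3061 peaks shared bases with a kept peak. Their median score was 90.0, against 59.2 for the 2669 Kap1 KO peaks without a WT partner on these chromosomes, and their median width was 548 bp against 382 bp. Of the 100 highest Kap1 KO scores on these chromosomes, 61 belonged to partners of kept peaks.

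A kept peak usually had 1 partner. This was so for 348 peaks, while 29 lay over 2 or more Kap1 KO peaks, and 16 Kap1 KO peaks spanned 2 or more kept peaks. Partners covered a median of 80.3% of the bases of the WT peak (quartiles 57.0% and 97.0%), and 65 kept peaks lay wholly under them. The best partner had the higher score for 155 of the 377 kept peaks, and the WT peak was the wider of the pair for 243. Across the kept peaks the scores of both lists were loosely related (Spearman's rho 0.296, Pearson's r of the log10 scores 0.363, n = 377 peaks of the same libraries). Peaks over repeated DNA held the higher Kap1 KO scores. Among the 196 kept peaks mostly repeated within 500 kb, the median Kap1 KO score was 105 and the partner scored higher in 98. Among the other 181, the median was 80.8 and the partner scored higher in 57.

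**Figure D1:**
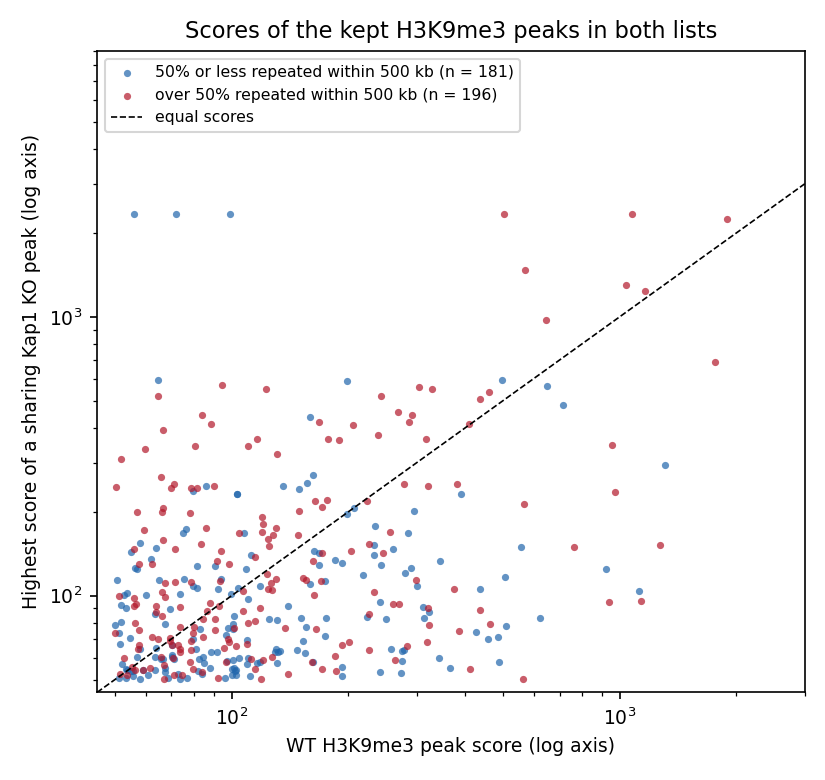
Each point is 1 of the 377 kept peaks, with its WT score on the horizontal log axis and the highest score of a sharing Kap1 KO peak on the vertical log axis. Red points are peaks with over 50% of 31-mers repeated within 500 kb (n = 196) and blue points the others (n = 181). The dashed line marks equal scores, and 155 points lie above it.

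At the edge of the rule, the members with the least shared bases were chr2:152923310-152924065 (WT score 91.9, partner 133) and chr10:52247530-52247998 (64.6 and 593), each with 1 shared bp. They were followed by chr15:59980552-59981042 with 14 shared bp, chr8:34261583-34262031 with 17 and chr11:104676659-104677191 with 23. Just outside, the nearest base of a Kap1 KO peak lay 6 bp from chr11:80965633-80966629 (WT score 208), 11 bp from chr1:28912733-28913092 (64.8), 14 bp from chr6:18850134-18850519 (75.5), 26 bp from chr3:105987603-105988185 (68.8) and 30 bp from chr16:49030666-49030932 (52.4). Of the 13632 peaks not kept, 113 lay within 1000 bp of a Kap1 KO peak. Had a Kap1 KO peak within 1 kb been enough, 490 WT peaks (3.50%) would have been kept.

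The copy number of the DNA under each peak was read from mm9. Every stretch of 31 bases (a 31-mer) of a peak was looked up in the whole genome, on both strands. Kept peaks were mostly made of DNA with further copies. A median of 23.2% of their 31-mers occurred once in the genome (quartiles 7.48% and 53.3%), against 80.6% (32.4% and 98.5%) for peaks not kept. With under 50% of single-copy 31-mers, 275 of 377 kept peaks were mostly multi-copy (72.9%, exact Clopper-Pearson 95% interval 68.2% to 77.4%), against 33.6% (32.8% to 34.4%) of the peaks not kept and 34.6% of all. The difference was 39.4 percentage points (Newcombe interval 34.6 to 43.7). All such intervals treat peaks as separate counts within 1 library, cover counting error only, and say nothing of the spread between libraries.

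Copies close by set the kept peaks further apart. A median of 52.7% of the 31-mers of a kept peak occurred again within 500 kb on the same chromosome, against 0% for peaks not kept. Over 50% did so in 196 kept peaks (52.0%, 46.8% to 57.1%), against 10.6% of the peaks not kept and 11.7% of all, a difference of 41.4 points (36.4 to 46.5). Without the 3 loci with the most kept peaks the kept share was 47.6%. Read the other way, 12.0% of the 1635 WT peaks of this kind were kept, 2.46% of the 3217 multi-copy peaks without such local copies and 1.11% of the 9157 mostly single-copy peaks. The Kap1 KO partners lie over much of the same DNA by the rule, so their median of 20.8% single-copy 31-mers is no separate result. Kap1 KO peaks without a WT partner had a median of 85.9%. With peaks under 10 kb apart joined to 1 locus, the difference in local repeats was 41.4 points (35.6 to 47.1). How reads that fit several copies were placed is not given for the ChIP-seq in the sources used here. A peak in one copy can then not be told apart from signal of another copy, and the part of this in the result was not tested.

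**Figure D2:**
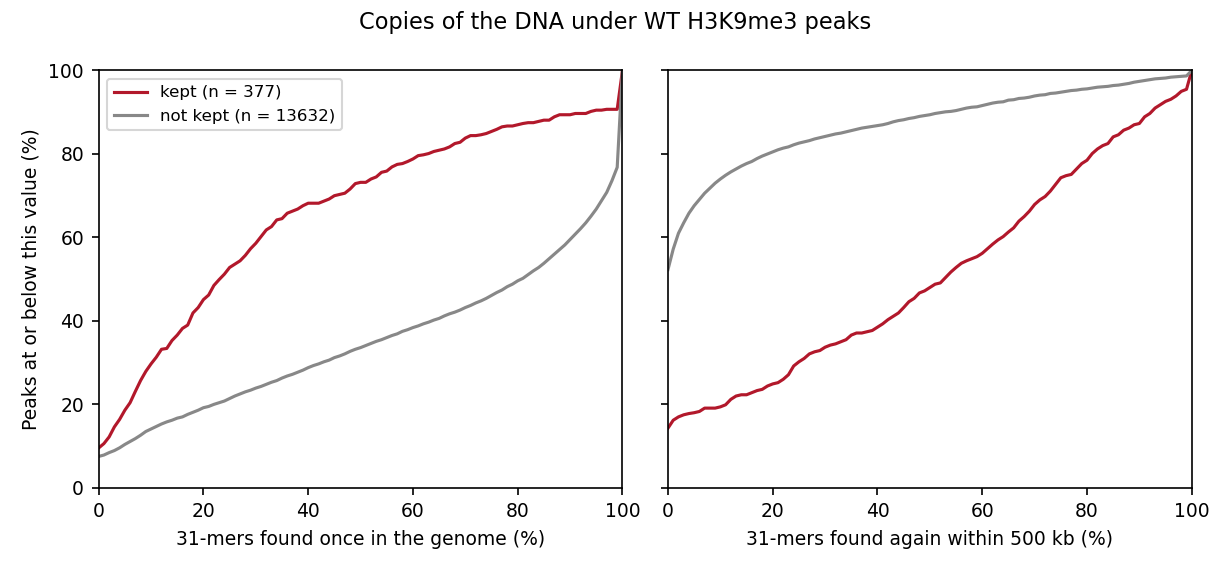
Cumulative share of peaks (vertical axis, %) against the percentage of 31-mers that occur once in the genome (left) and that occur again within 500 kb (right), for kept (red, n = 377) and not kept (grey, n = 13632) WT H3K9me3 peaks. At the median, kept peaks had 23.2% single-copy 31-mers and 52.7% locally repeated ones, against 80.6% and 0% for peaks not kept.

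Tandem repeats were frequent. In 160 kept peaks (42.4%, 37.4% to 47.6%) over 10% of the 31-mers recurred inside the peak itself, against 5.16% of the peaks not kept and 6.16% of all, a difference of 37.3 points (32.4 to 42.3). The most frequent distance from a 31-mer to its next copy, taken as the repeat unit, was 10 to 60 bp in 81 of these 160 peaks, under 10 bp in 26, 61 to 200 bp in 28 and longer in 25. Such units of 10 to 60 bp are the size of minisatellites. Among the 703 peaks not kept with repeats of this kind, 200 had units of 10 to 60 bp and 245 had shorter ones. The median unit was 42.5 bp in kept peaks and 30.0 bp in the others.

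Some of the highest Kap1 KO scores lay on tandem repeats. The peak at the start of Muc19, a gel-forming mucin, was 4006 bp wide (chr15:91736877-91740882), scored 1891 in WT and 2250 in Kap1 KO MEFs, and had 88.8% of its 31-mers repeated inside it. It lay wholly under its partner of 4123 bp. The next peak, chr4:118219583-118221525, lay 2934 bp from the start of Tmem125 and scored 570 in WT and 1468 in Kap1 KO MEFs. Its most frequent repeat distance was 44 bp, with 33.5% of its repeat distances. At chr10:7230785-7235423, near 9230019H11Rik, the most frequent repeat distance was 19 bp and the scores were 1163 and 1236. Its units are not shown, since the best ungapped match of 57 bases at its middle to the stretch that followed had 45.6% identity. Of these 3 peaks, all had the higher score in the Kap1 KO list, and only the one at Muc19 overlapped a Hepa 1.6 KAP1 peak, with a score of 391. The peak in an intron of Rrp15, a factor of ribosomal RNA processing (chr1:188553629-188556353), scored 1765 in WT and 688 in Kap1 KO MEFs. Its most frequent repeat distance was 31 bp, with 18.5% of its repeat distances. The peak in Lyst, which regulates lysosomes, had scores of 328 in WT and 550 in Kap1 KO MEFs. There the most frequent distance was 34 bp, with 33.4% of the repeat distances.

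Joined where less than 100 kb lay between them, the kept peaks formed 256 loci. Of these, 210 held 1 peak, while 11 loci of 5 or more held 87 of the 377 peaks. The 3 largest held 39, and in each of them most peaks had the higher score in Kap1 KO MEFs.

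The SNORD116 array held 12 kept peaks over 116095 bp (chr7:66931431-67047525), and they were all the WT peaks there. SNORD116 genes encode small nucleolar RNAs of the imprinted Prader-Willi region, transcribed from the paternal allele. The annotation lists 27 of them here, of which 12 lay within 1 kb of a WT peak and 24 within 1 kb of a Kap1 KO peak. Further Kap1 KO peaks of the array shared no base with a WT peak, among them 1 with a score of 240. WT scores ran from 51.99 to 239 with a median of 79.9, and the scores of the partners from 82.3 to 569 with a median of 316. The highest WT score was that of chr7:67006478-67010165, at 239 against 376 in Kap1 KO MEFs. The member with the highest Kap1 KO score, chr7:67024692-67025323, scored 94.6 in WT and 569 in Kap1 KO MEFs. The Kap1 KO score was the higher for 11 of the 12, the exception being chr7:67002217-67002673 with 90.4 in WT and 82.3 in Kap1 KO MEFs. None of the 12 overlapped a peak of KAP1 or of H3K27ac.

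The cluster on chromosome 8 (chr8:57974914-57998330) held 11 kept peaks in 23417 bp, again all the WT peaks there. It contains 5 annotated genes of similar sequence, Gm1153, Gm7349, Gm7354, Gm17293 and Gm7360, and 7 of the 11 peaks lay within 1 kb of a start. WT scores were between 59.6 and 292 (median 159) and Kap1 KO scores between 171 and 522 (median 436), with the Kap1 KO score higher for all 11, some of which shared a partner. At Gm7354 the peak over the gene (chr8:57983865-57985186) scored 243 in WT and 522 in Kap1 KO MEFs. At Gm7349 (chr8:57980510-57981772) the scores were 268 and 454. These are copies of 1 another over most of their length (median 97.5% of 31-mers repeated within 500 kb), so the 11 peaks are not separate observations.

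**Figure D3:**
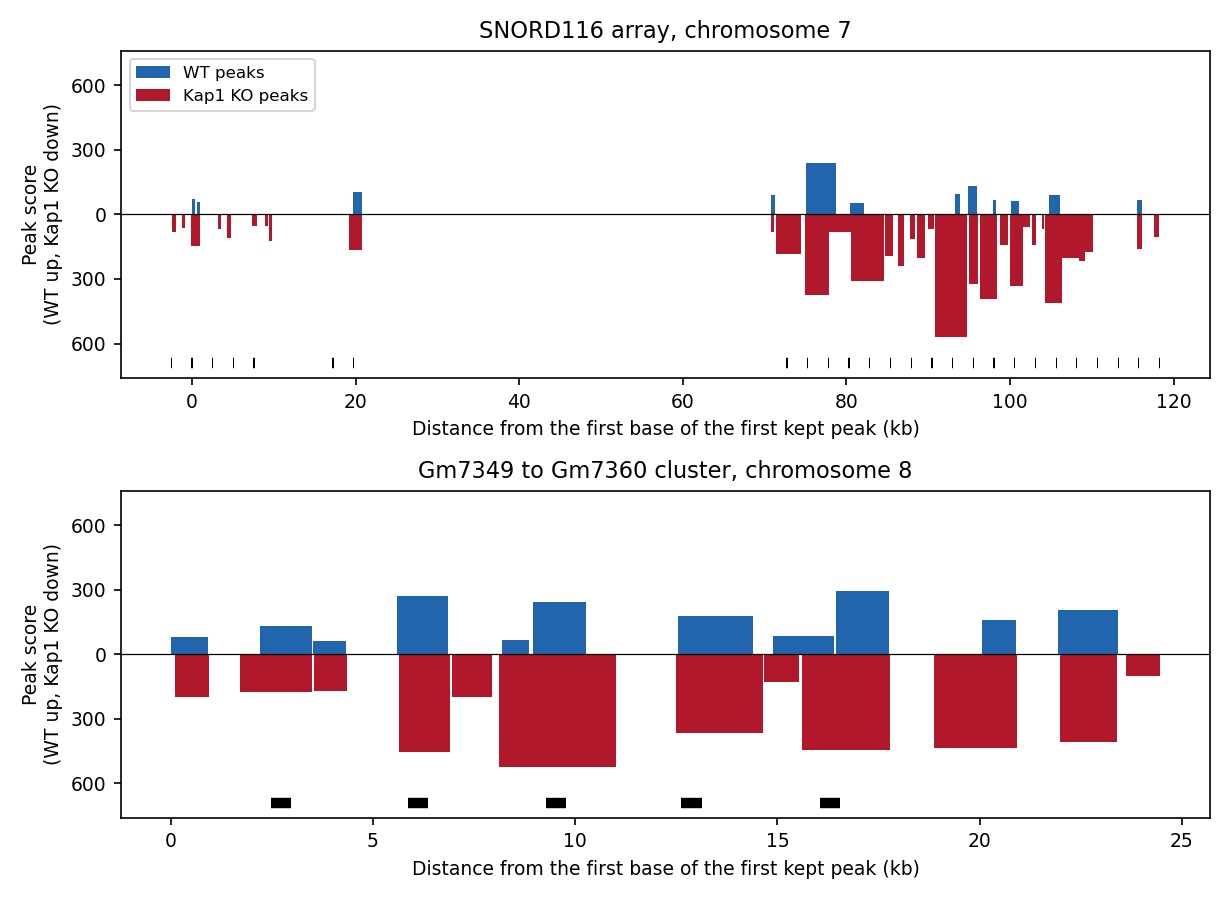
WT (blue, upward) and Kap1 KO (red, downward) H3K9me3 peaks over the SNORD116 array of chromosome 7 (top) and the Gm7349 to Gm7360 cluster of chromosome 8 (bottom), with bar height as peak score, bar width as peak width, and position in kb from the first kept base. Black marks are annotated genes. All 12 and 11 WT peaks lie over a Kap1 KO peak, and the highest Kap1 KO scores are 569 and 522.

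The largest group was on chromosome 1, with 16 kept of 23 WT peaks in 383677 bp (chr1:84959991-85343667), over C130026I21Rik, Gm2619 and related gene models. The kept peaks had 19 Kap1 KO partners. Many further Kap1 KO peaks of this locus shared no base with a WT peak, 1 of them with a score of 558. In this group WT scores had a median of 71.8 (51.2 to 317) and Kap1 KO scores a median of 134 (50.5 to 365), and the latter were higher for 13 of 16. Of the 16 peaks, 2 overlapped a KAP1 peak and 1 an H3K27ac peak of Kap1 KO MEFs. A smaller locus was the array of Dux, the homeobox factor that starts transcription in the early embryo. Its 3 WT peaks were all kept and lay over 7 Kap1 KO peaks. The widest (chr10:57683923-57691522, 7600 bp, at the starts of Dux and 4933403O03Rik) scored 1037 in WT and 1303 in Kap1 KO MEFs, and the neighbour at Gm10807 scored 647 and 974. The last of the 3 scored 78.4 and 112. No KAP1 or H3K27ac peak overlapped these 3.

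By chromosome, the most kept peaks were on chromosome 8 (59 of 2043 WT peaks, 2.89%), chromosome 1 (37 of 760, 4.87%) and chromosome 4 (35 of 829, 4.22%). The highest shares were 13.6% (6.98% to 23.0%) of 81 WT peaks on chromosome 18, 10.5% (6.77% to 15.3%) of 219 on chromosome 7 and 6.48% (4.15% to 9.56%) of 355 on chromosome 3. The lowest share was 0.867% (0.449% to 1.51%) of 1384 on chromosome 11. The SNORD116 array alone held 12 of the 23 kept peaks of chromosome 7.

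**Figure D4:**
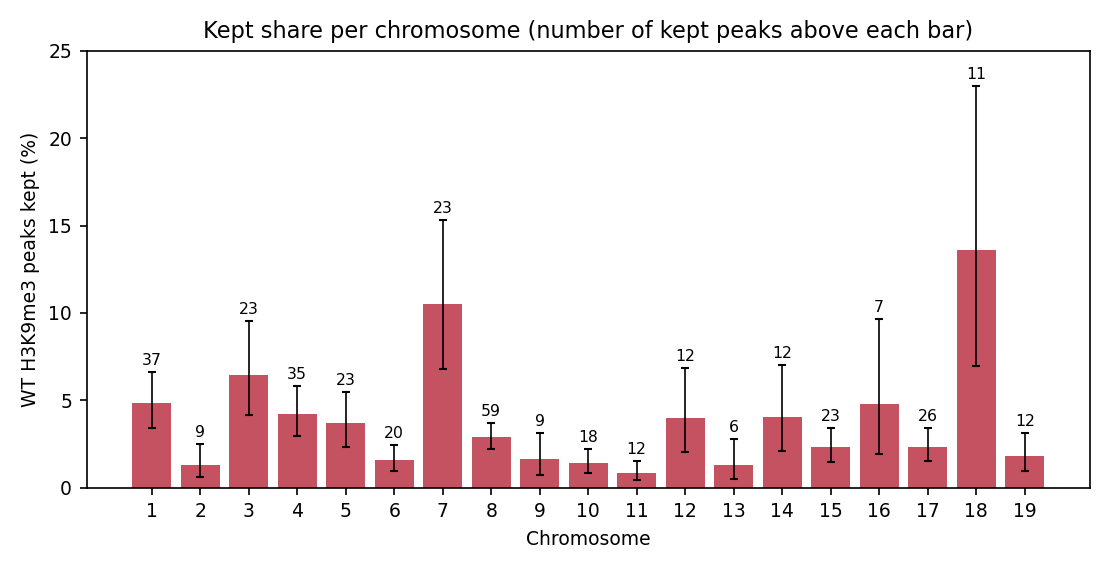
Share of WT H3K9me3 peaks kept on each autosome (bars, %), with exact 95% intervals (lines) and the number of kept peaks above each bar, chromosome 10 without its distal end. The shares run from 0.867% on chromosome 11 to 13.6% on chromosome 18.

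Kept peaks were also frequent where the assembled chromosomes begin. Mouse chromosomes carry their centromere at one end, and in mm9 the first sequenced base of each autosome is position 3000001. Within 500 kb of it lay 24 kept peaks (6.37%, 4.12% to 9.32%), against 0.770% of the peaks not kept and 0.921% of all, a difference of 5.60 points (3.54 to 8.53). They were on 8 chromosomes, with 9 on chromosome 4, 5 on chromosome 6 and 5 on chromosome 18. Those 5 of chromosome 18, between chr18:3113276 and chr18:3120610, scored 55.9, 71.7, 98.9, 503 and 1079 in WT MEFs. All lay over the same Kap1 KO peak, which was 7186 bp wide and had the highest score of the Kap1 KO list, 2341. The 9 of chromosome 4 (chr4:3090611-3181110) had WT scores of 69.2 to 289 and Kap1 KO scores of 75.8 to 419. The 5 of chromosome 6 (chr6:3082939-3134688) had WT scores of 57.0 to 311 and Kap1 KO scores of 59.7 to 124. The remaining 5 chromosomes had 1 each, and the one of chromosome 11 (chr11:3000003-3005005) began 2 bases into the sequence, with scores of 56.5 and 126.

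The 5 widest kept peaks were of mixed kinds. The widest, chr8:19893082-19902578, spanned 9497 bp over 6820431F20Rik and neighbouring gene models, with 83.6% of its 31-mers repeated within 500 kb and scores of 123 in WT and 549 in Kap1 KO MEFs. The peak chr8:74357979-74367187, 13921 bp from the closest start, that of Gm5373, had 9209 bp and scored 284 and 167. That at Trpm8, the cold receptor channel, covered 8192 bp of almost wholly single-copy DNA (96.7%), and scored 136 and 247. The peak chr12:20232544-20240675 had 8132 bp and the highest WT score of the 5, 1306, against 294 in Kap1 KO MEFs. The fifth was the peak at Dux.

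Kept peaks lay at gene starts more often than the others. A transcript start was within 1 kb of 68 of them (18.0%, 14.3% to 22.3%), against 6.72% (6.30% to 7.15%) of the peaks not kept and 7.02% of all. The difference was 11.3 points (7.74 to 15.5). It held in both classes of DNA, with 25.5% against 8.51% of mostly single-copy peaks (difference 17.0 points, 9.49 to 26.2) and 15.3% against 3.17% of mostly multi-copy peaks (12.1 points, 8.29 to 16.9). Of the other kept peaks, 17 overlapped an exon, 81 lay within introns and 211 between genes. Peaks between genes made up 56.0% of the kept and 66.5% of the others (difference -10.5 points, -15.6 to -5.52). The first start within 1 kb was that of a protein-coding gene for 41 kept peaks, a pseudogene for 14, a small nucleolar RNA for 11 and a processed transcript for 2. The 11 were all SNORD116 genes, and without the 3 largest loci the share at starts was 13.9%, against 6.72% (difference 7.18 points, 3.87 to 11.3). Those 3 loci held 11, 7 and 3 of the 42 multi-copy kept peaks at starts. The difference among multi-copy peaks was not computed without them.

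Of the 68 kept peaks at a start of any type, 42 were mostly multi-copy and 26 mostly single-copy, and 41 lay at starts of 40 protein-coding genes. The 42, which include the 11 at SNORD116 genes, had median scores of 120 in WT and 272 in Kap1 KO MEFs, and the Kap1 KO score was the higher in 29. Beside Muc19, Dux and the clusters above, they were at protein-coding gene models such as Gm6996 (499 in WT and 593 in Kap1 KO MEFs), AY761185 (508 and 117), Gm5373 (93.9 and 115), Gm17684 (127 and 105) and Gm9880 (57.6 and 66.5), and at Uros, an enzyme of haem synthesis (90.8 and 75.5).

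The 26 single-copy peaks at starts had median scores of 131 in WT and 80.7 in Kap1 KO MEFs, and the Kap1 KO score was the higher in 10. With the higher score in Kap1 KO MEFs, peaks lay at Glp1r, the receptor of an incretin hormone (85.8 in WT and 248 in Kap1 KO MEFs), Unc5d, a netrin receptor (81.4 and 128), and Nr3c2, the mineralocorticoid receptor (65.1 and 114). The same order was seen at Wnt7b, a Wnt ligand (53.9 and 102), Odz3, a teneurin of the cell surface (53.3 and 90.3), Sec14l3 (55.1 and 143) and Muc3, another mucin (75.3 and 115). The reverse order was seen at Foxm1, a cell cycle transcription factor (313 and 83.2), Herc3, a ubiquitin ligase (510 and 78.2), and Sall1, a zinc finger factor of kidney development (342 and 59.6). It was also seen at Ank1, an ankyrin of the red cell membrane (275 and 63.3), Dgki, a diacylglycerol kinase (258 and 64.7), Cwc25 (132 and 62.7) and Med12l (84.4 and 60.2). Each of these is 1 value per genotype without a replicate.

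The base composition of the kept peaks also differed. In the 200 bp at the middle, the median GC content was 55.5% (quartiles 48.0% and 63.0%), against 48.5% (43.5% and 53.0%) in peaks not kept. The ratio of observed to expected CpG was low in both, with medians of 0.138 and 0.174. CpG-rich middles, with over 50% GC and a ratio over 0.6, were found in 38 kept peaks (10.1%), against 8.83% of the others and 8.87% of all (difference 1.25 points, -1.44 to 4.73). The classes of DNA lay on opposite sides. Among mostly single-copy peaks, 19.6% of the kept (20 of 102) and 6.23% of the others were CpG-rich (difference 13.4 points, 6.82 to 22.1). Among mostly multi-copy peaks it was 6.55% and 14.0% (difference -7.44 points, -10.0 to -3.74). The 38 CpG-rich kept peaks had a median Kap1 KO score of 65.7, and 12 of them reached 80. Of the single-copy peaks at starts, 15 of 26 were CpG-rich, against 43.6% of such peaks not kept (difference 14.1 points, -4.96 to 31.2). The motif TGCCGC, searched on both strands of these 200 bp, was in 15 kept peaks (3.98%, and 4.91% of all WT peaks). TTAGGG, the unit of telomeres, was in 25 (6.63%, and 8.46% of all). Neither share was distinguished from that of the peaks not kept (differences -0.958 points, -2.56 to 1.55, and -1.88 points, -4.03 to 1.13).

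A Hepa 1.6 KAP1 peak overlapped 40 kept peaks (10.6%, 7.69% to 14.2%), against 14.6% (14.0% to 15.2%) of the peaks not kept and 14.5% of all. The difference was -3.98 points (-6.77 to -0.417), and it depended on the setting. It was larger when the peaks not kept were limited to WT scores at or above the median of the kept ones, with all kept peaks retained (-12.5 points, -15.5 to -8.80). It was also larger with a score of at least 80 in both H3K9me3 lists (-11.1 points, -14.6 to -5.67). It was not distinguished from 0 when the middle of the peak had to lie in the KAP1 peak (-1.98 points, -4.54 to 1.37), without the 3 largest loci (-3.36 points, -6.36 to 0.501), or with neighbouring peaks joined to loci (0.553 points, -3.54 to 5.45). By class, KAP1 was at 8.36% of the kept and 19.3% of the other multi-copy peaks (difference -10.9 points, -13.9 to -6.88). It was at 16.7% of the kept and 12.2% of the other single-copy peaks (4.44 points, -1.59 to 12.9). Whether these classes differed from each other was not tested.

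The 40 kept peaks with KAP1 had a median WT score of 261 and a median Kap1 KO score of 73.0, and the Kap1 KO score was the higher in 7. The scores of their KAP1 peaks had a median of 293, against 215 for the KAP1 peaks over the 1989 peaks not kept. Kap1 KO peaks covered a median of 55.9% of the 40 members, and 32.4% of the 17 single-copy ones, against 80.3% of all kept peaks. KAP1 overlap was counted over the whole WT peak, so KAP1 may lie outside the part that Kap1 KO peaks cover. The highest KAP1 score of the 40, 3100, belonged to 3 members, and this tie does not show equal binding. One lay between genes on chr17:4626057-4626695 (171 in WT and 209 in Kap1 KO MEFs). Another lay at the start of Fcgr3, a receptor for antibodies (563 and 50.1). The last was chr9:89774427-89776940 (1123 and 104), 27673 bp from the start of Rasgrf1, a gene expressed from the paternal allele whose imprint is set at repeats upstream of it. Its partners covered 30.0% of it, and its repeat unit was 40 bp. Next came Tbr1, a T-box factor of the cerebral cortex, with a KAP1 score of 2111 (218 in WT and 119 in Kap1 KO MEFs), and Wnt7b with 1926.

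The SETDB1 list held 2957 peaks, all of them also rows of the KAP1 list. Of the 40 members with KAP1, 23 overlapped a peak of the SETDB1 list (6.10% of the 377, 3.91% to 9.01%), against 4.77% of the peaks not kept and 4.80% of all. The difference of 1.33 points (-0.703 to 4.24) was not distinguished from 0, and with peaks joined to loci it was 4.57 points (1.54 to 8.63). By class the differences had opposite signs, with 9.80% against 3.06% of single-copy peaks (6.74 points, 2.34 to 14.1) and 4.73% against 8.15% of multi-copy peaks (-3.42 points, -5.54 to -0.142).

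H3K27ac, the mark of active promoters and enhancers, was rare on the kept peaks in both genotypes. In WT MEFs 8 overlapped an H3K27ac peak (2.12%, 0.920% to 4.14%), against 1.36% of the peaks not kept and 1.38% of all (difference 0.765 points, -0.299 to 2.78). In Kap1 KO MEFs it was 13 (3.45%, 1.85% to 5.82%), against 4.82% and 4.78% of all (difference -1.37 points, -2.84 to 1.02). Neither difference was distinguished from 0. By class, the WT mark was at 4.90% of the kept and 1.56% of the other single-copy peaks (3.34 points, 0.541 to 9.41), and at 1.09% and 0.961% of the multi-copy peaks (0.130 points, -0.660 to 2.21). In Kap1 KO MEFs neither class was distinguished (-2.83 points, -4.83 to 2.54, and 0.709 points, -1.02 to 3.67). Over all peaks, the WT difference passed when the middle of the peak was used (0.998 points, 0.0291 to 2.93). The Kap1 KO difference passed against peaks not kept with a WT score at or above the kept median (-2.91 points, -4.53 to -0.453). All kept peaks stayed in that comparison, so the sets were not matched in score. In all, 5 members had the mark in both genotypes, 3 in WT alone and 8 in Kap1 KO MEFs alone, and 361 had it in neither.

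The 5 with H3K27ac in both genotypes were Foxm1, the 6820431F20Rik locus, Kdelr2, Rrp15 and chr5:38414073-38414694. At the start of Foxm1 and at 6820431F20Rik the H3K27ac score was 3100 in both genotypes. This value recurs near the top of the scores. It was the upper quartile of the WT H3K27ac scores over the 185 peaks not kept, and the highest of these was 3180. Equal scores of 3100 therefore do not show equal signal. The Kap1 KO H3K9me3 peak at Foxm1 covered 117 bp (11.3%) of the WT peak. At 6820431F20Rik these H3K27ac peaks did not overlap the Kap1 KO H3K9me3 peak. They ended at chr8:19895684 (WT) and chr8:19895724 (Kap1 KO), and that peak began at chr8:19895759. At Kdelr2, the receptor that returns proteins to the endoplasmic reticulum, H3K27ac scored 281 in WT and 589 in Kap1 KO MEFs. In Rrp15 it scored 64.3 and 380. The members with H3K27ac in WT alone were the starts of Zfp423 (score 2625), Odz3 (1857) and Wnt7b (103), all single-copy. Among the 8 with the mark in Kap1 KO MEFs alone, the highest H3K27ac score was 2779, at chr3:96121056-96122740, and the others scored between 55.4 and 380. The 380 was at chr1:188556358-188557069, also in Rrp15. It is the same Kap1 KO H3K27ac peak as that of the Rrp15 member marked in both genotypes.

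**Figure D5:**
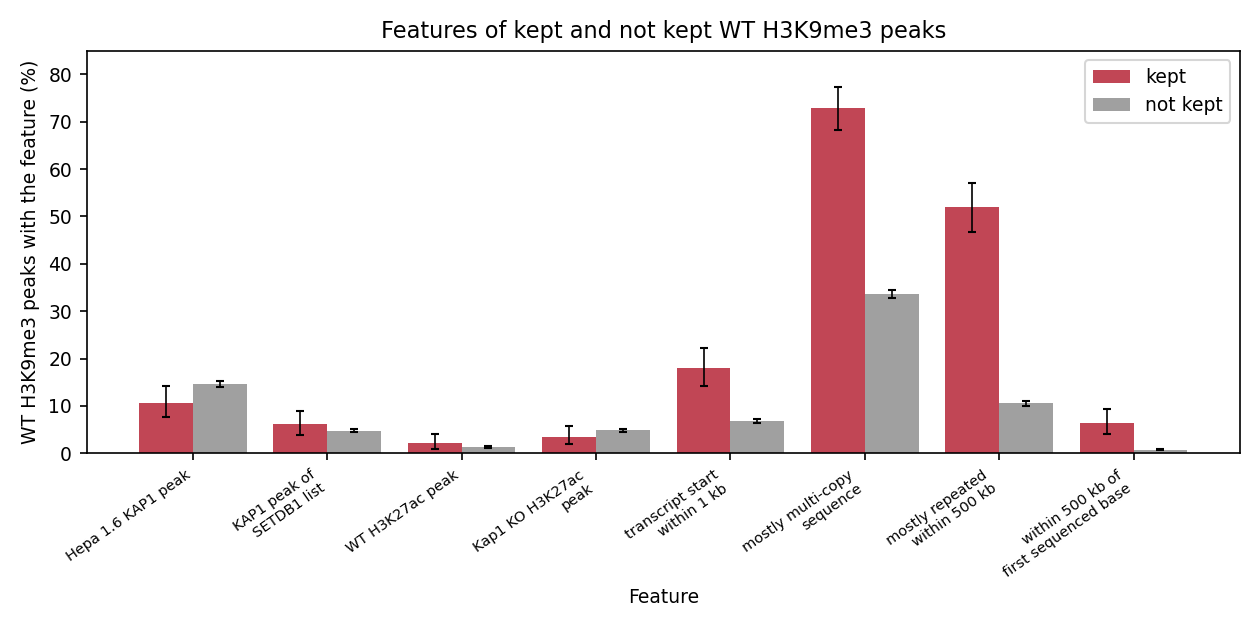
Share of kept (red, n = 377) and not kept (grey, n = 13632) WT H3K9me3 peaks with each feature (bars, %), with exact 95% intervals (lines). The widest gaps are 72.9% against 33.6% for mostly multi-copy sequence and 52.0% against 10.6% for sequence repeated within 500 kb, while the KAP1 and H3K27ac shares lie within 4 points of each other.

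Lists of genes were compared with the 2.69% of WT peaks kept among all. Of 366 genes with a symbol of the Zfp, Zscan, Zkscan, Zim or Zik kind, which many KZFP genes bear, 78 had a WT peak within the gene or 1 kb of it. Of those 165 peaks 1 was kept (0.606%), at Zfp423, a zinc finger factor that carries no KRAB domain. The exact upper limit of this share, 3.33%, lies above the 2.69% kept among all, so the list was not distinguished from all WT peaks. The list leaves out KZFP genes that have only a provisional symbol. Many of these lie on distal chromosome 4, a region known for a KZFP cluster and picked here after its values were seen. Between chr4:145000001 and chr4:147200000, 12 of 189 WT peaks were kept (6.35%, 3.32% to 10.8%). They had WT scores of 66.9 to 1268 (median 170) and Kap1 KO scores of 51.8 to 235 (median 67.1), and the Kap1 KO score was the higher in 0 of 12. The peak at the start of Gm13238 scored 1268 in WT and 152 in Kap1 KO MEFs, and that at Gm13241 scored 972 and 235. Both overlapped a KAP1 peak, as did 3 of the 12 in all. Among germline genes 0 of 29 WT peaks were kept, which allows a share of up to 10.3% by 3 counts (exact upper limit 11.9%). Among imprinted genes it was 0 of 28, which allows up to 10.7% (exact upper limit 12.3%). All these limits lie above the share kept among all WT peaks. The SNORD116 genes and the repeats upstream of Rasgrf1 lie outside the genes of that imprinted list and their 1 kb margins. Among olfactory and vomeronasal receptors 1 of 22 was kept (4.55%, exact upper limit 22.8%), at Olfr94. Histone, clustered protocadherin and hepatocyte genes had 1 WT peak each, not kept, and genes of fibroblasts and of the silencing machinery had 0 WT peaks.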

How the data were processed

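H3K9me3, H3K27ac, KAP1 and SETDB1 peak lists were used, each from 1 library, so a sample stands for its condition and no spread between samples was available. Reads were aligned to mm9 by the authors with Bowtie 2 (2.2.1) in its sensitive-local mode. MACS (1.4) then called the peaks, with total input as control, and its score is the deposited value of each peak. The submitters' processing notes also name CASAVA 1.82. Depth is not given in the lists and is unknown, and reads that fit several places are not mentioned for ChIP-seq in the sources used here.

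Overlaps, shares and 31-mer copies were computed in Python 3.11.15 with pandas 2.3.3, numba 0.67.0, numpy 2.4.6, pysam 0.24.0 and scipy 1.17.1, and plots with matplotlib 3.10.9. The overlap of the lists was checked with bedtools 2.31.1, which gave the same 462 WT peaks over all chromosomes. Copies were counted in the mm9 genome and gene context was taken from GENCODE vM1, with starts within 1 kb, exons, introns and the space between genes in this order. Shares have exact Clopper-Pearson 95% intervals and differences Newcombe 95% intervals, and a difference was called where its interval excluded 0. No p-value was computed. The scripts were tested on simulated data.

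The regions, gene lists and comparisons were chosen with earlier results of these data known. Members described one by one were the 10 with the highest Kap1 KO score, the 5 widest, the 5 with the highest KAP1 score, the 5 with the highest Kap1 KO H3K27ac score and those at the edge of the rule. Genes were those at these members, protein-coding genes with a start within 1 kb, up to 30 by Kap1 KO score, and genes of the lists. The SNORD116 array, the clusters of chromosomes 1, 4 and 8, the members of the first 500 kb, Lyst and the other members with H3K27ac were named after their values were seen. The shares by DNA copies, tandem repeats and distance from the first sequenced base were added after seeing the data. The zinc finger, olfactory, histone and protocadherin lists were taken by symbol. RNA-seq and the other libraries were not analysed here.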

Additional observations from a re-analysis of the deposited data

How the results depend on the processing

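The number of kept peaks, 377 of 14009 (2.69%), depended on the length of the lists, and the share moved less. It was 162 of 7035 (2.30%) with a score of at least 80 in both lists. With only the upper 50% of scores it was 193 of 7045 (2.74%). When both lists were trimmed by score to equal length it was 143 of 3061 (4.67%). By the overlap rule, over all 14009 peaks, it was 490 (3.50%) when a Kap1 KO peak within 1 kb counted. It was 356 (2.54%) with at least 50% of the shorter interval shared and 321 (2.29%) with the middle of the WT peak inside a Kap1 KO peak. The enrichment at gene starts, of multi-copy DNA, of local repeats and of the first 500 kb kept its direction and an interval without 0 under all alternatives tried for each, with differences of 7.18 to 11.9, 31.4 to 46.9, 20.5 to 52.4 and 3.11 to 7.20 points. The KAP1 difference did not. Its interval included 0 with the middle of the peak (-1.98 points), with 50% of the shorter peak shared (-3.62) and without the 3 largest loci (-3.36). Its direction turned with peaks joined to loci (0.553). The interval excluded 0 with a score of at least 80 in both lists (-11.1) and with all chromosomes included (-4.34). It also did against peaks not kept with a WT score at or above the kept median (-12.5). An interval without 0 appeared for the SETDB1 list with joined loci (4.57) and for WT H3K27ac by the middle of the peak (0.998). For Kap1 KO H3K27ac it appeared against peaks not kept with a WT score at or above the kept median (-2.91). The cause was not tested in these cases. The shares of multi-copy DNA, of local repeats and of the first 500 kb, with all their settings, were chosen after seeing the data, as were leaving out the largest loci and using all chromosomes for the other shares. The share of soft-masked bases was not run, because the genome used is in capitals throughout. No paired analysis was possible because each list came from 1 library per condition. No replicate could be left out, and weak Kap1 KO signal under the peak threshold counts as not kept.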
